A study of Homo sapiens with 4 samples.

Results

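Glycerophospholipids are the main lipids of cell membranes, and 35 genes for their synthesis and remodelling were described here in 2 human hepatocellular carcinoma cell lines. They were taken by symbol from a fixed list covering the choline, ethanolamine, serine, inositol and cardiolipin branches and acyl remodelling. All 35 were found among the 18398 RefSeq transcripts listed for each library. The libraries were made from total RNA of Huh1 and Huh7, both established lines, each transfected with a negative control siRNA (NC) or with an siRNA against ODC1, which encodes ornithine decarboxylase, the enzyme that commits ornithine to the polyamines. There was 1 library for each line with each siRNA, 4 in all, and no label gives a time after transfection, a genotype change, a batch or a second culture. The p-values thus reflect only how these 4 libraries spread, which may be technical. No siRNA sequence is given in the labels, and 1 siRNA stands for each target, so effects of lowering ODC1 and of that siRNA on other transcripts cannot be told apart.

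The backbone of these lipids starts from glycerol 3-phosphate, which is acylated to phosphatidate. Phosphatidate is dephosphorylated to diacylglycerol, which accepts activated choline or ethanolamine in the Kennedy pathway, or is activated by CTP to CDP-diacylglycerol, the precursor of phosphatidylinositol, phosphatidylglycerol and cardiolipin. Finished lipids are then remodelled by phospholipases and lysophospholipid acyltransferases. Hepatocytes use phosphatidylcholine for bile and lipoprotein secretion and can also make it by methylating phosphatidylethanolamine.

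The libraries held 10215332 to 13384836 reads, as worked out from the spacing of low values. Levels are in RPKM, reads scaled to transcript length and to library size, and folds were tested on log2(RPKM + 1), a scale that understates the change of weakly expressed genes. ODC1, as a check of the labels, was at 103 RPKM with NC and 25.0 RPKM with ODC1 siRNA in Huh1. In Huh7 it was at 167 and 7.50 RPKM, so 24.2% and 4.49% were left. All 12 hepatocyte markers on the list reached 1 RPKM in every library. Their summed level was 5440 RPKM with NC and 4771 with ODC1 siRNA in Huh1, and 3397 and 2701 RPKM in Huh7. ALB was its largest part, at 3447 RPKM in Huh1 and 1166 RPKM in Huh7 with NC. Single markers went both ways with NC. AFP was at 24.8 RPKM in Huh1 and 865 RPKM in Huh7, and TTR at 5.10 and 29.3 RPKM. FOXA2 was at 10.4 and 28.5 RPKM, and FGB at 178 and 195 RPKM. The other hepatocyte markers were higher in Huh1. The 6 fibroblast markers summed to 12.1 and 15.7 RPKM in Huh1 but 284 and 370 RPKM in Huh7, 4 of them reaching 1 RPKM in some library. The 5 cholangiocyte markers summed to between 114 and 165 RPKM, but single markers differed between the lines in opposite directions. With NC, KRT7 was at 84.4 RPKM in Huh1 and 0.66 RPKM in Huh7, whereas SOX9 was at 3.72 and 30.4 RPKM. KRT19, EPCAM and CFTR were also higher in Huh7. The 5 blood cell markers summed to between 3.99 and 25.4 RPKM, nearly all of it CD68, at 23.3 RPKM in Huh1 and 3.71 RPKM in Huh7 with NC. CD14, CD3E and PTPRC stayed under 1 RPKM, and HBB was at 0 in all libraries. The endothelial markers summed to under 1 RPKM in every library, with CDH5 at 0. The part of these differences in the results below was not tested.

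Across the branches, the 2 lines differed at most steps while ODC1 siRNA left no member past the threshold over both lines. Of all genes tested, 73.9% passed between the lines and 2.12% for ODC1 siRNA, so this contrast is not particular to the members. In all, 33 members reached 1 RPKM in some library and were tested, 28 reached it in all 4, and LPCAT2 and MBOAT2 stayed under it throughout. Summed RPKM over the 35 members was 535 and 527 in Huh1, and 525 and 492 in Huh7, each with NC first. Nearly equal totals thus stood beside unequal levels of single genes, as the plot of levels by branch shows.

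**Figure D1:**
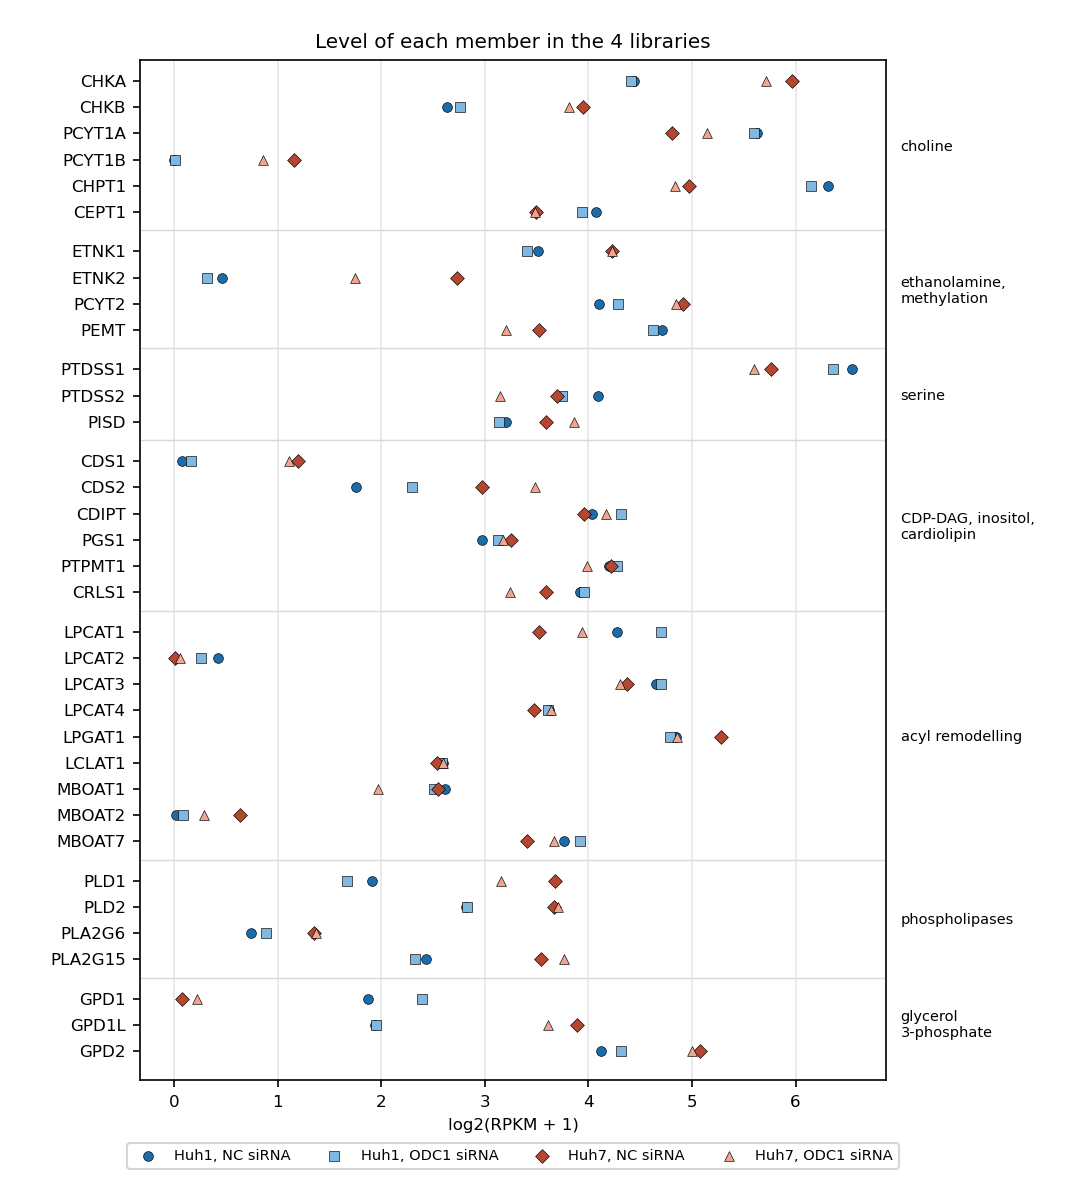
Level of each of the 35 members on log2(RPKM + 1) in the 4 libraries, by branch, with 1 point a library. The 2 libraries of a line lie together for most genes: the phospholipases are to the right in Huh7, whereas CHPT1, PEMT, PTDSS1 and GPD1 are to the right in Huh1.

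The comparison of Huh7 with Huh1 used limma with line and siRNA as terms and p-values adjusted over 12039 genes, passing at 0.05. Of the 33 members tested, 15 were higher in Huh7, where 43.1% of all genes tested were, and 11 were lower in Huh7, where 30.8% of all genes were. Those shares are near the background, so the count itself is not particular to these genes. The members' median log2 difference was 0.16, and that of all genes tested was 0.13. Quantile normalization shifts the latter by -0.13, and of the members past the threshold it left PCYT1B untested and turned the direction of no other. The count of 26 was 16 with no filter on low values, where 6068 of 18398 genes passed, against 8891 of 12039 in the fit reported. With a library left out, 1 line keeps 1 library, and fewer members and fewer of all genes passed. Leaving out at least 1 library, in fits that drop the siRNA term, ended the call of 10 members: PCYT1A, CEPT1, PTDSS2, PISD, CDS2, CRLS1, LPCAT1, LPCAT3, MBOAT7 and PLA2G6.

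**Figure D2:**
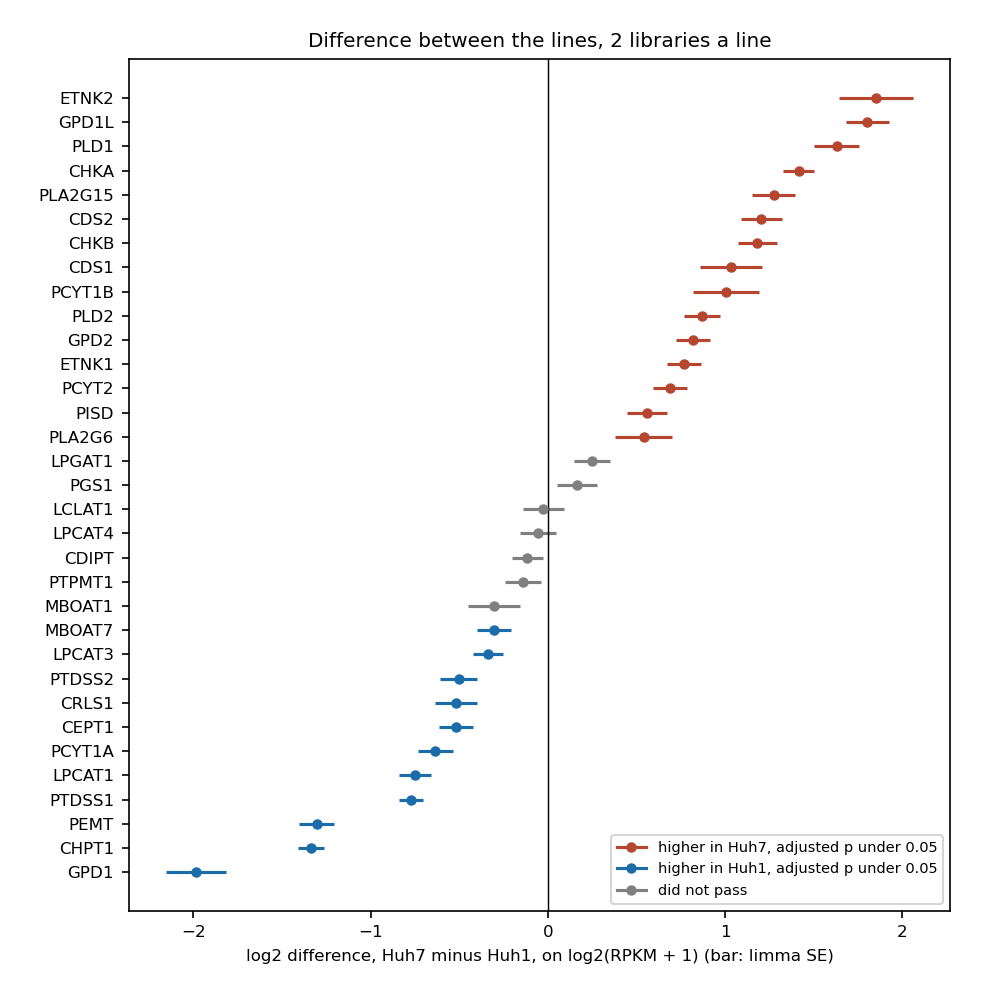
Log2 difference between Huh7 and Huh1 for the 33 members tested, on log2(RPKM + 1), with limma standard errors as bars and 2 libraries a line. On this scale ETNK2, at 1.85, and GPD1, at -1.99, mark the ends of the range, and 7 members did not pass.

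In the choline branch all 6 members passed the test between the lines, 3 higher in each, where 73.9% of all genes tested passed. The kinases that commit choline to the pathway were higher in Huh7. CHKA was at 20.7 and 20.4 RPKM in Huh1, with NC and ODC1 siRNA, and at 61.7 and 51.7 RPKM in Huh7. Both Huh7 libraries thus stood above both Huh1 libraries, and the log2 difference was 1.41 (SE 0.086, limma adjusted p = 1.23e-06). CHKB, the other choline kinase, was at 5.23 and 5.80 RPKM in Huh1 and 14.5 and 13.1 RPKM in Huh7 (log2 difference 1.18, SE 0.11, limma adjusted p = 1.80e-05). CHKA made up 77.8% to 81.0% of the RPKM of this pair in the 4 libraries, so the kinases differed between the lines by about the same ratio.

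The next enzyme, which activates phosphocholine with CTP and limits the rate of phosphatidylcholine synthesis, went the other way. PCYT1A was at 48.4 and 47.5 RPKM in Huh1 and 27.0 and 34.5 RPKM in Huh7 (log2 difference -0.64, SE 0.099, limma adjusted p = 0.000399). Its paralog PCYT1B was at 0.00248 and 0.00758 RPKM in Huh1, less than 1 read in either library, and at 1.23 and 0.82 RPKM in Huh7, from about 25 and 14 reads. The 2 lines did not overlap for it (limma adjusted p = 0.00119), yet PCYT1A made up at least 95.6% of the pair in every library. The cholinephosphotransferases, which join choline to diacylglycerol, were also higher in Huh1. CHPT1 was at 78.8 and 70.1 RPKM in Huh1 and 30.3 and 27.5 RPKM in Huh7, a log2 difference of -1.34 (SE 0.073, limma adjusted p = 6.47e-07). CEPT1, which also uses ethanolamine, was at 15.9 and 14.3 RPKM in Huh1 and 10.2 RPKM in both Huh7 libraries (log2 difference -0.52, SE 0.097, limma adjusted p = 0.00121). CHPT1 was 83.1% to 83.2% of the pair in Huh1 and 73.0% to 74.7% in Huh7.

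In the ethanolamine branch the first steps were higher in Huh7, and the methyltransferase was lower there. ETNK1, an ethanolamine kinase, was at 10.4 and 9.61 RPKM in Huh1 and 17.8 and 17.7 RPKM in Huh7 (log2 difference 0.77, SE 0.095, limma adjusted p = 9.65e-05). The second kinase gene, ETNK2, was weakly expressed in Huh1, with 0.378 and 0.247 RPKM in Huh1 (about 12 and 7 reads) and 5.65 and 2.36 RPKM in Huh7 (log2 difference 1.85, SE 0.21, limma adjusted p = 5.63e-05). Accordingly ETNK1 was 96.5% and 97.5% of the pair in Huh1 but 75.9% and 88.2% in Huh7. PCYT2, the ethanolamine counterpart of PCYT1A, was at 16.1 and 18.5 RPKM in Huh1 and 29.2 and 27.9 RPKM in Huh7 (log2 difference 0.69, SE 0.094, limma adjusted p = 0.000182). PEMT, which methylates phosphatidylethanolamine to phosphatidylcholine and is most active in liver, was at 25.3 and 23.7 RPKM in Huh1 and 10.5 and 8.25 RPKM in Huh7. Its lines did not overlap, and the log2 difference was -1.30 (SE 0.098, limma adjusted p = 4.43e-06).

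Phosphatidylserine is made by exchange of head groups, and its 2 synthases were higher in Huh1, PTDSS2 less firmly. PTDSS1, which acts on phosphatidylcholine, had the highest mean level of the serine branch, at 92.2 and 81.3 RPKM in Huh1 and 53.3 and 47.4 RPKM in Huh7 (log2 difference -0.77, SE 0.069, limma adjusted p = 1.27e-05). PTDSS2, which acts on phosphatidylethanolamine, was at 16.1 and 12.5 RPKM in Huh1 and 11.9 and 7.85 RPKM in Huh7 (log2 difference -0.50, SE 0.10, limma adjusted p = 0.00190). Huh1 with ODC1 siRNA and Huh7 with NC lay close together for PTDSS2. Its call was lost in 5 of 12 alternatives, with no siRNA term among them (limma adjusted p = 0.0856). The difference was -0.23 without the Huh7 ODC1 library and -0.33 without the Huh1 NC library, against -0.78 without the Huh7 NC library. Fits with a library left out drop the siRNA term, so the siRNA effect enters their line difference by construction. PISD, the mitochondrial decarboxylase that turns phosphatidylserine into phosphatidylethanolamine, was instead higher in Huh7, at 11.1 and 13.5 RPKM against 8.20 and 7.78 RPKM in Huh1 (log2 difference 0.56, SE 0.11, limma adjusted p = 0.00208).

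Among the genes of CDP-diacylglycerol and its products, the lines differed at the entry and at the cardiolipin end. CDS1 and CDS2 make CDP-diacylglycerol from phosphatidate, and both were higher in Huh7. CDS2 was at 2.38 and 3.92 RPKM in Huh1 and 6.86 and 10.2 RPKM in Huh7 (log2 difference 1.20, SE 0.12, limma adjusted p = 2.01e-05). CDS1 was at 0.0554 and 0.120 RPKM in Huh1, about 3 and 6 reads, against 1.29 and 1.16 RPKM in Huh7 (log2 difference 1.03, SE 0.18, limma adjusted p = 0.000728). CDS2 was therefore the larger part of the pair everywhere, 97.0% to 97.7% in Huh1 and 84.2% to 89.8% in Huh7. CRLS1, the cardiolipin synthase, was at 14.1 and 14.6 RPKM in Huh1 and 11.1 and 8.50 RPKM in Huh7 (log2 difference -0.52, SE 0.12, limma adjusted p = 0.00347). The other 3 genes did not pass: CDIPT, the phosphatidylinositol synthase, lay between 14.5 and 19.0 RPKM. PGS1, the first enzyme towards phosphatidylglycerol, lay between 6.87 and 8.57 RPKM. PTPMT1, the phosphatase that follows it and the member with the highest mean level here, was at 17.4 and 18.4 RPKM in Huh1 and 17.6 and 14.9 RPKM in Huh7.

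Of the 9 acyltransferases of remodelling, 7 were tested, 3 were higher in Huh1 and none was higher in Huh7. The shares of all genes tested were 30.8% and 43.1%. LPCAT1, which reacylates lysophosphatidylcholine mainly with saturated chains, was at 18.4 and 24.9 RPKM in Huh1 and 10.5 and 14.4 RPKM in Huh7 (log2 difference -0.75, SE 0.089, limma adjusted p = 7.62e-05). LPCAT3, which prefers polyunsaturated chains, was at 24.1 and 25.0 RPKM in Huh1 and 19.7 and 18.8 RPKM in Huh7 (log2 difference -0.34, SE 0.086, limma adjusted p = 0.00684). MBOAT7, which puts arachidonate on lysophosphatidylinositol, was at 12.6 and 14.1 RPKM in Huh1 and 9.59 and 11.7 RPKM in Huh7 (log2 difference -0.31, SE 0.097, limma adjusted p = 0.0194). The MBOAT7 call held in 6 of 12 alternatives and was lost with each library left out in turn, with a difference of -0.17 without the Huh7 NC library (limma adjusted p = 0.313). For all 3 the lines did not overlap, although LPCAT3 and MBOAT7 differed least among the members that passed. LPGAT1, an acyltransferase of lysophosphatidylglycerol and the member with the highest mean level here, was at 27.8 and 26.7 RPKM in Huh1 and 37.9 and 28.0 RPKM in Huh7. Its log2 difference of 0.25 missed the threshold (SE 0.10, limma adjusted p = 0.0509). It passed with the counting trend (limma adjusted p = 0.0264). The LPGAT1 difference was 0.46 without the Huh7 ODC1 library and 0.038 without the Huh7 NC library. For every member, fits with a library left out drop the siRNA term, so the siRNA effect enters the line difference by construction. LPCAT4 lay between 10.1 and 11.5 RPKM, LCLAT1, which acts on lysocardiolipin, between 4.82 and 5.06 RPKM, and MBOAT1 between 2.92 and 5.12 RPKM. MBOAT1 passed as higher in Huh1 in 3 of 12 alternatives, with quantile normalization (-0.48), upper quartile scaling (-0.37) and without the Huh7 NC library (-0.59). The untested LPCAT2 was at 0.346 and 0.200 RPKM in Huh1, about 25 and 12 reads, with 2 reads or fewer in each Huh7 library. MBOAT2, likewise untested, gave about 2 and 5 reads in Huh1 and 53 and 17 in Huh7.

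All 4 phospholipases were higher in Huh7, where 43.1% of all genes tested were. PLD1, which releases choline from phosphatidylcholine and leaves phosphatidate, was at 2.75 and 2.18 RPKM in Huh1 and 11.8 and 7.95 RPKM in Huh7 (log2 difference 1.63, SE 0.13, limma adjusted p = 5.10e-06). PLD2, with the same reaction, was at 6.05 and 6.09 RPKM in Huh1 and 11.7 and 12.1 RPKM in Huh7 (log2 difference 0.87, SE 0.10, limma adjusted p = 7.54e-05). PLD1 differed more, and its share of the pair was 31.3% and 26.4% in Huh1 and 50.2% and 39.6% in Huh7. PLA2G15, the lysosomal phospholipase, was at 4.42 and 4.02 RPKM in Huh1 and 10.7 and 12.6 RPKM in Huh7 (log2 difference 1.27, SE 0.12, limma adjusted p = 1.93e-05). PLA2G6, a calcium-independent phospholipase, was at 0.677 and 0.857 RPKM in Huh1 and 1.55 and 1.58 RPKM in Huh7 (log2 difference 0.54, SE 0.16, limma adjusted p = 0.0139), though with quantile normalization the difference was 0.25 and did not pass (limma adjusted p = 0.162). The summed level of the 4 genes was 13.9 and 13.2 RPKM in Huh1 and 35.8 and 34.2 RPKM in Huh7.

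The glycerol 3-phosphate dehydrogenases link this pathway to glycolysis, and 1 of the 3, GPD1, was near absent from Huh7. The cytosolic enzyme GPD1 was at 2.68 and 4.27 RPKM in Huh1 (103 and 138 reads) but 0.0570 and 0.170 RPKM in Huh7 (2 and 5 reads). With NC the level in Huh7 was 0.0213 times that in Huh1 (95% counting interval 0.00255 to 0.0789), and the log2 difference was -1.99 (SE 0.17, limma adjusted p = 9.67e-06). GPD1L, its cytosolic paralog, was at 2.85 and 2.87 RPKM in Huh1 and 13.8 and 11.2 RPKM in Huh7 (log2 difference 1.8, SE 0.12, limma adjusted p = 2.24e-06). GPD1 was thus 48.4% and 59.8% of the pair in Huh1 and 0.410% and 1.49% in Huh7. GPD2, the mitochondrial enzyme, had the highest mean level of the 3, with 16.5 and 19.0 RPKM in Huh1 and 32.8 and 31.1 RPKM in Huh7 (log2 difference 0.82, SE 0.094, limma adjusted p = 6.38e-05).

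**Figure D3:**
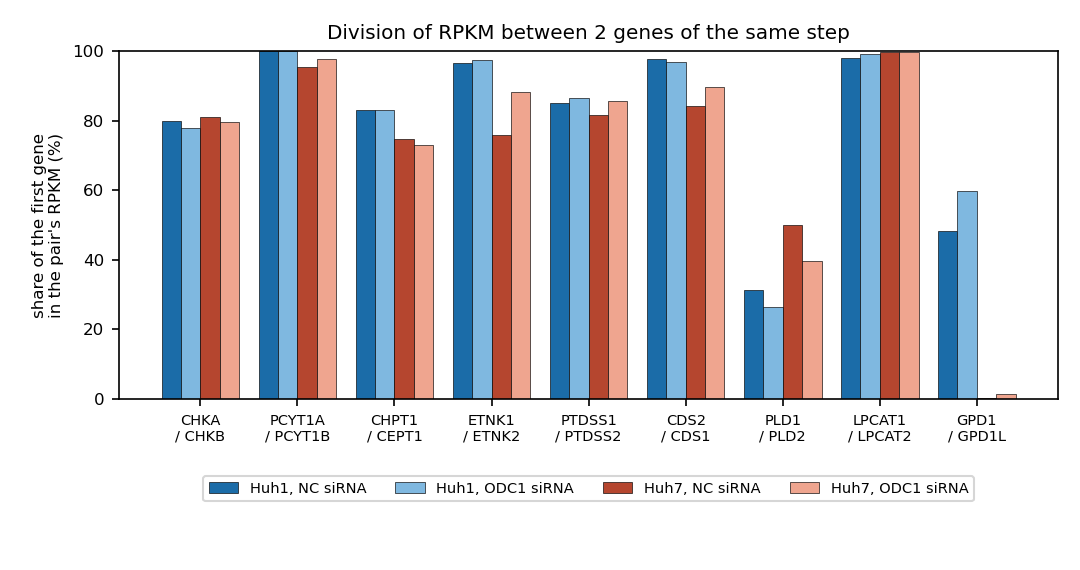
Share of the first-named gene in the summed RPKM of 9 pairs of genes for the same step, one bar a library, in percent. The GPD1 share is 48.4% and 59.8% in Huh1 and under 2% in Huh7, while the CHKA share stays between 77.8% and 81.0%.

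ODC1 siRNA was then compared with NC over both lines. limma called 0 of 33 members at an adjusted p of 0.05, where 2.12% of the 12039 genes passed, 181 higher and 74 lower. Before adjustment 9 members, 27.3%, had p under 0.05, against 19.0% of all genes tested. With upper quartile scaling, which called 3.41% of genes, 1 member passed, PTDSS2, and higher genes made up 51.0% of all calls in place of 71.0%. With the variance trend taken from counting error, which called 2.77% of genes, 2 passed, CDS2 and LPCAT1. The members' median log2 fold change was -0.0031, and that of all genes 0.0063.

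The 3 members nearest the threshold were CDS2, LPCAT1 and PTDSS2, and their promoters are shown because each had the same direction in both lines. The sequences are the 250 bases before the RefSeq start in GRCh38.p14, 5′ to 3′ on the strand of the gene, and RefSeq gives 2 starts for PTDSS2. Capitals mark motif matches on either strand. The first motif, called the GC box, has the letters GGGCGG, and 2 of its matches overlap near the end of the window for CDS2. The second is known as a CCAAT box after its own letters. The third, named the E-box, is the palindrome CACGTG and is found in one of the windows.
CDS2, chr20:5126758-5127007, plus strand: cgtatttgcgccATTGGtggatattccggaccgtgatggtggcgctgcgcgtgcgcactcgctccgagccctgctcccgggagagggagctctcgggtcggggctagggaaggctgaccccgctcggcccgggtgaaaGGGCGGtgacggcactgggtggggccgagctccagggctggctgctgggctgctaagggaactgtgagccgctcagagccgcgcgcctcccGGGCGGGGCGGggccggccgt
LPCAT1, chr5:1523961-1524210, minus strand: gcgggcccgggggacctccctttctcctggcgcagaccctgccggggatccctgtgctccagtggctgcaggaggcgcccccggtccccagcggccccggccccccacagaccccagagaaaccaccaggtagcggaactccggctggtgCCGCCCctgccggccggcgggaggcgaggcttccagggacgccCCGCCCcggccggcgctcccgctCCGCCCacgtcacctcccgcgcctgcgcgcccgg
PTDSS2, chr11:450029-450278, plus strand: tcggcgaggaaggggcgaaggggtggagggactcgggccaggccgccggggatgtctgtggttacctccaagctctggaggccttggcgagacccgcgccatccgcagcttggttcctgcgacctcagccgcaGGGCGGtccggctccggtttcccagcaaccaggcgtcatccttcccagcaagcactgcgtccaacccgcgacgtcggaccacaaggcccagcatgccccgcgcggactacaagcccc
PTDSS2, chr11:448018-448267, plus strand: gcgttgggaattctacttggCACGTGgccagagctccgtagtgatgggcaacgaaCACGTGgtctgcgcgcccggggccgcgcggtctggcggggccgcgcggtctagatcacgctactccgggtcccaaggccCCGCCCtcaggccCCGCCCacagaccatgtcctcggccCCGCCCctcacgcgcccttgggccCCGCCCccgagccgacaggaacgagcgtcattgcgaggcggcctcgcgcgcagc
The GC box was present in 26 of the 30 members found in the promoter table, CDS2, LPCAT1 and both PTDSS2 windows included, against 62.3% of 13073 windows of tested genes and 42.6% of all 35116 windows. The CCAAT box was found in 10 members, CDS2 among them, and in 33.1% of windows of tested genes. The E-box was found in 4 members, PEMT, PLA2G6, PTDSS2 and PTPMT1, and in 8.18% of such windows. PTDSS2 held 2 E-boxes, both in the second window printed. A TATA box (TATAAA) was found in 0 members and 6.33% of windows of tested genes, and TCACNCCAC, a sterol response element-like motif, in 0 members and 0.910%. Median GC content of the windows was 69.4% for members and 64% for tested genes. A gene with 2 starts has 2 chances of a match, and these matches are letters in a window, not sites shown to be bound.

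CDS2 (NM_003818) was at 2.38 RPKM with NC and 3.92 RPKM with ODC1 siRNA in Huh1. In Huh7 it was at 6.86 and 10.2 RPKM. The ODC1 siRNA library was the higher one in each line. Its RPKM ratio was 1.64 in Huh1 (95% counting interval 1.41 to 1.91) and 1.49 in Huh7 (1.35 to 1.64), where counting intervals cover counting error alone. Over both lines limma gave a log2 fold change of 0.53 (SE 0.12, adjusted p = 0.0593, and 0.0186 with the counting trend). The adjusted p over all 12 alternatives lay between 0.0186 and 1.00.

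LPCAT1 (NM_024830) was at 18.4 and 24.9 RPKM in Huh1 and 10.5 and 14.4 RPKM in Huh7, the higher value being with ODC1 siRNA each time. The ratios were nearly equal, 1.36 in Huh1 (counting interval 1.24 to 1.48) and 1.37 in Huh7 (1.21 to 1.54). Over both lines limma gave a log2 fold change of 0.42 (SE 0.089, adjusted p = 0.0545, and between 0.0386 and 1.00 over the alternatives).

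PTDSS2 (NM_030783) was at 16.1 and 12.5 RPKM in Huh1 and 11.9 and 7.85 RPKM in Huh7, lower with ODC1 siRNA in each line. The ratios were 0.774 (counting interval 0.673 to 0.888) and 0.657 (0.549 to 0.785). Over both lines limma gave a log2 fold change of -0.45 (SE 0.10, adjusted p = 0.0660), and with upper quartile scaling it was -0.48 (limma adjusted p = 0.0353). The range over the alternatives was 0.0353 to 1.00. The other synthase, PTDSS1, had ratios of 0.881 (0.849 to 0.915) and 0.890 (0.845 to 0.938), a log2 fold change of -0.17 and a limma adjusted p of 0.225. PTDSS1 was 85.1% of the pair with NC and 86.7% with ODC1 siRNA in Huh1, and 81.7% and 85.8% in Huh7.

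The remaining 5 members with p under 0.05 before adjustment were further from the threshold. CDIPT, which uses the CDP-diacylglycerol that CDS2 makes, was at 15.4 and 19.0 RPKM in Huh1 and 14.5 and 17.0 RPKM in Huh7 (log2 fold change 0.25, limma adjusted p = 0.189). PLD1 had ratios of 0.793 (0.634 to 0.989) and 0.673 (0.600 to 0.757), with a log2 fold change of -0.38 (limma adjusted p = 0.160). CDIPT was the higher and PLD1 the lower with ODC1 siRNA in each line. ETNK2 had a log2 fold change of -0.56 (limma adjusted p = 0.196), LPGAT1 one of -0.24 (0.247) and MBOAT1 one of -0.34 (0.255). For these 3 the value in Huh7 was the larger one, as given next.

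Within a line there is no replicate and no test, so a rule of size was used, at least 1.5-fold on log2(RPKM + 1) with 1 RPKM in either library. In Huh1 it took 0 of 29 members, where 1.37% of 10912 genes were past it. The log2 fold changes there ran from -0.35 for PTDSS2 to 0.54 for CDS2. In Huh7 it took 1 of 32 members, ETNK2, where 5.69% of 11416 genes were past it. ETNK2 was at 5.65 RPKM with NC and 2.36 RPKM with ODC1 siRNA in Huh7, a ratio of 0.418 (counting interval 0.306 to 0.567), and in Huh1 about 12 and 7 reads gave a ratio of 0.655 (0.232 to 1.92). The Huh1 interval thus spans both no difference and the Huh7 ratio. The ETNK2 log2 fold change in Huh7 was -0.98, past the limit of 0.585 in size. Just outside the limit stood MBOAT1, an acyltransferase of lysophosphatidylethanolamine and lysophosphatidylserine, at -0.58 with 4.86 and 2.92 RPKM, and PTDSS2 at -0.55.

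Counting intervals of the ratio set the size of these differences against counting error. The shares of all genes rest on annotated lengths, whereas 12 members had recovered lengths, so the widths of their intervals are not fully comparable. In Huh1 the interval lay above 1 for 6 of 29 members, CDS2, LPCAT1, CDIPT, GPD1, PCYT2 and GPD2, against 20.1% of all genes compared. It lay below 1 for 4, PTDSS1, PTDSS2, CHPT1 and PLD1, against 14.4%. In Huh7 it lay above 1 for 7 of 32 members, CDS2, LPCAT1, CDIPT, PCYT1A, PISD, MBOAT7 and PLA2G15, against 23.6%. It lay below 1 there for 9, CHKA, ETNK2, PTDSS1, PTDSS2, CRLS1, LPGAT1, MBOAT1, PLD1 and GPD1L, against 23.2%. Each share is near that of all genes, so none of these counts is a result about the members. In both lines the interval lay above 1 for CDS2, CDIPT and LPCAT1, 3 of 28 members against 11.8% of 10289 genes. It lay below 1 in both lines for PTDSS1, PTDSS2 and PLD1, again 3 of 28, against 8.39%. For 0 of 28 members did it lie above 1 in one line and below 1 in the other, which 2.32% of genes did.

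**Figure D4:**
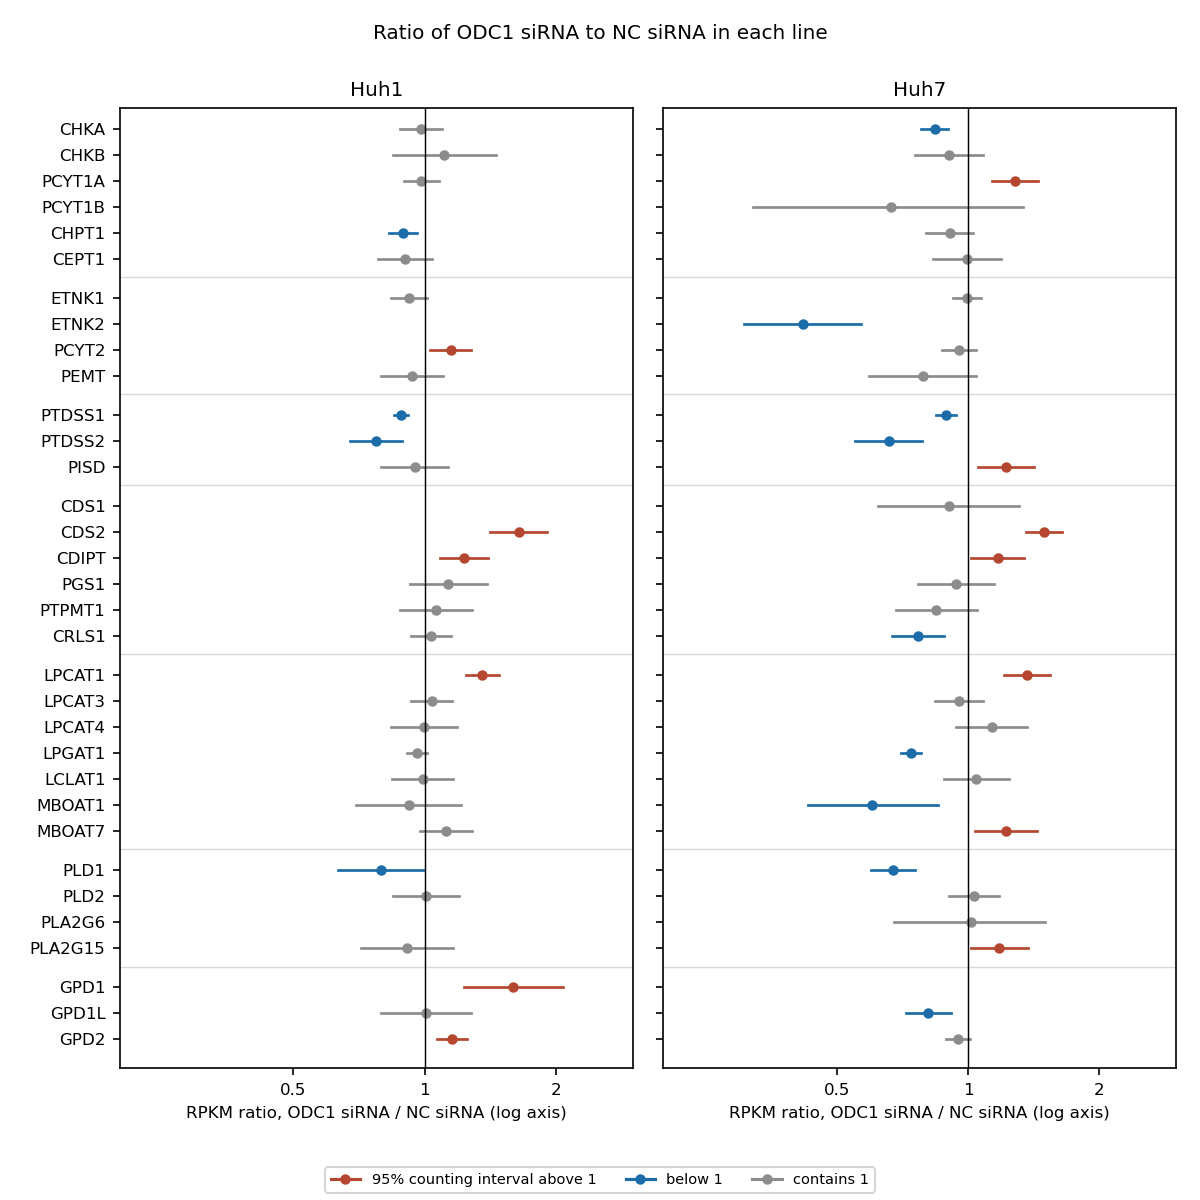
RPKM ratio of ODC1 siRNA to NC on a log axis in Huh1 and in Huh7, by branch, for members with at least 1 RPKM in either library of the line. Points are ratios of 1 library to 1 library, and lines are 95% counting intervals: CDS2 lies at 1.64 and 1.49, PTDSS2 at 0.774 and 0.657, and ETNK2 in Huh7 at 0.418.

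By branch, several values in Huh7 lay past counting error where those in Huh1 did not. All genes compared showed this too: 23.6% lay above 1 and 23.2% below in Huh7, against 20.1% and 14.4% in Huh1. CHKA had a ratio of 0.838 in Huh7 (counting interval 0.780 to 0.899) and 0.981 in Huh1 (0.877 to 1.10), while PCYT1A had 1.28 in Huh7 (1.13 to 1.44) and 0.982 in Huh1 (0.895 to 1.08). The kinase and the next enzyme of the choline branch thus stood on opposite sides of 1 in Huh7. CRLS1 had a ratio of 0.768 in Huh7 (0.670 to 0.882) and 1.03 in Huh1 (0.929 to 1.15). LPGAT1 had 0.739 in Huh7 (0.701 to 0.779), the narrowest interval among its branch, and 0.961 in Huh1 (0.909 to 1.01). PISD had 1.22 in Huh7 (1.05 to 1.41) and 0.949 in Huh1 (0.796 to 1.13), and GPD1L 0.811 (0.720 to 0.914) and 1.01 (0.792 to 1.28). For CHKA, PISD and GPD1L the intervals of the 2 lines overlapped. In the other direction, GPD2 had a ratio of 1.15 in Huh1 (1.07 to 1.25) and 0.949 in Huh7 (0.892 to 1.01). PCYT2 had 1.15 in Huh1 (1.03 to 1.28) and 0.954 in Huh7 (0.874 to 1.04), intervals that overlap. GPD1 had a ratio of 1.60 in Huh1 (1.23 to 2.08). In Huh7 its 2 and 5 reads gave a ratio of 2.99 (0.489 to 31.3), too few reads to set the lines apart. CHPT1 had a ratio of 0.891 in Huh1 (0.827 to 0.959). In Huh7 CHPT1 had a like ratio of 0.907 (0.800 to 1.03), so for it the lines differed only in which side of 1 the interval reached.

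Whether the lines responded differently could not be tested, as no degree of freedom is left for it. The log2 fold changes of the 2 lines lay at least 1.5-fold apart for 1 of 33 members, ETNK2, where 4.23% of genes were that far apart. Of the log2 fold changes in Huh7, 21 of 33 were negative, 63.6% against 50.3% of all genes, with a median of -0.073 against -0.0020. In Huh1 16 of 33 were negative, 48.5% against 45.0% of all genes, with a median of 0.0073 against 0.017. All 4 ethanolamine genes and 5 of 6 choline genes were negative in Huh7, though of these 10 the counting interval excluded 1 on the low side for CHKA and ETNK2 alone. ETNK1, at -0.0073, and CEPT1, at -0.0086, were negative by very little, and CEPT1 was at 0.0014 with quantile normalization. In Huh1 none of the 6 CDP-diacylglycerol genes was negative, where 45.0% of all genes were, and CDS1 rested on about 3 and 6 reads. These are signs of single differences and were not tested.

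Neighbouring steps were taken from a list of 50 other genes of the pathway, of which 44 were tested. limma called 0 of them for ODC1 siRNA at an adjusted p of 0.05, against 2.12% of all genes tested. Before adjustment 14, or 31.8%, had p under 0.05, against 19.0% of all genes. The largest values each way were those of PLA2G12A, a secreted phospholipase, at 0.50 (limma adjusted p = 0.0662), and AGPAT5, a lysophosphatidate acyltransferase, at -0.47 (limma adjusted p = 0.0680). PLA2G12A was at 7.33 and 10.7 RPKM in Huh1 and 2.45 and 3.92 RPKM in Huh7, and AGPAT5 at 9.67 and 7.0 RPKM in Huh1 and 8.04 and 5.30 RPKM in Huh7. Each had its direction in both lines.

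Between the lines, 14 of the 44, or 31.8%, were higher in Huh7, against 43.1% of all genes tested, and 18, or 40.9%, were higher in Huh1, against 30.8%. The limma adjusted p of these 32 lay between 1.36e-09 and 0.0360. Those that supply phosphatidate and diacylglycerol split. The acyltransferases AGPAT6, AGPAT1 and AGPAT3 were higher in Huh7, with log2 differences of 0.79, 0.77 and 0.48. AGPAT9, AGPAT2, GPAM and AGPAT5 were higher in Huh1, at -3.23, -1.09, -0.74 and -0.29. Of the phosphatidate phosphatases, PPAP2C was at 66.8 and 71.7 RPKM in Huh1 and listed at 0 in both Huh7 libraries, PPAP2A differed by -2.14 and PPAP2B by 0.38. Among choline transporters and enzymes of choline use, SLC44A2 differed by 3.12, FLVCR2 by 1.09 and CHDH by 0.58, and SLC44A1 by -1.31. SLC44A2 was at 0.261 and 0.233 RPKM in Huh1 and 10.9 and 8.87 RPKM in Huh7. SLC44A1 was the highest of the choline transporter-like genes in both lines, at 40.2 and 42.9 RPKM in Huh1 and 16.7 and 15.7 RPKM in Huh7.

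For ether lipids, AGPS differed by 0.26 and FAR1, GNPAT and TMEM189 by -1.96, -0.59 and -0.28. Of the 6 other cardiolipin genes, TAZ, TRIAP1 and PRELID1 were higher in Huh1, at -1.70, -0.95 and -0.77, while PNPLA8, HADHA and TAMM41, at -0.17, -0.15 and 0.24, did not pass. Of the lipid transfer genes, PITPNC1 and PITPNB differed by 0.85 and 0.70, and STARD10 and PCTP by -1.29 and -0.99. Among the other lipases, PLA2G4A, GPCPD1, PNPLA6 and GDE1 differed by 2.85, 1.73, 0.56 and 0.41, and PLA2G12A, LYPLA1 and GDPD1 by -1.26, -1.18 and -0.46. PLA2G4A, the cytosolic phospholipase that releases arachidonate, was listed at 0 in both Huh1 libraries and was at 6.05 and 6.42 RPKM in Huh7.

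Some of these values carry a limit from overlapping genes, since the use of strand in counting is not given in the sources used here. In GENCODE release 29, exons of 16 of the 35 members overlap exons of a gene on the opposite strand. The longest overlaps among them were of PCYT2 with NPB, over 1934 bases, and of LPCAT3 with EMG1, over 706 bases. On the same strand, CHKB shares exons with the readthrough gene CHKB-CPT1B, PCYT1A overlaps AC069257.3 over 127 bases, and PISD overlaps MIR7109 over 6 bases. PCYT1A also overlaps SLC51A on the opposite strand over 147 bases, and ETNK2 overlaps 2 antisense genes. Reads of such pairs cannot be told apart here. CDS2, LPCAT1, PTDSS1, PTDSS2, PLD1, GPD1 and GPD1L are among the 18 members with no such overlap.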

How the data were processed

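RNA sequencing libraries of Huh1 and Huh7 cells with negative control or ODC1 siRNA, 1 library a combination, were built from total RNA with a TruSeq RNA kit of Illumina, as the labels' protocols state. The submitters' processing notes name hg19, TopHat2 2.0.9 and CASAVA 1.8.2. Which program counted reads, on which annotation, and whether strand was used, is not given in the sources used here. The deposited files hold RPKM values per RefSeq transcript computed by the authors, with no header.

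The members and lists were chosen with earlier results of these data known. All 35 members were accounted for, with RPKM in every library for those past a threshold and for the highest of each branch. limma 3.58.1 (R 4.3.3) was fitted to log2(RPKM + 1) of the 12039 genes that reached 1 RPKM somewhere, with line, siRNA and an intensity trend, and tested on simulated data. Its 1 residual degree of freedom is how far the siRNA effect differs between Huh1 and Huh7, and moderation added 7.42. Adjustment followed Benjamini and Hochberg at 0.05. Line is the only pairing of NC with ODC1 libraries, and its term serves as the block.

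Depth was recovered from values under 0.3 RPKM. Between libraries, 48.8% to 51.4% of their ratios, relative to the commonest one, were fractions with a denominator up to 12, to a relative tolerance of 1e-06. The remainder were not. Whole reads in all 4 libraries (within 0.002 reads, at a length within 50% of an annotated one) were found for 12 members, and reads of the other 23 use the GENCODE release 29 length and are approximate. Counting intervals are Clopper-Pearson intervals at 95% on reads rounded to whole numbers, so they are approximate. Alternatives were other scalings, pseudocounts, filters, folds and trends, no block, and each library left out.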

Additional observations from a re-analysis of the deposited data

How the results depend on the processing

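For ODC1 siRNA over both lines, 0 members passed limma in the fit reported. The count was 1 with upper quartile scaling (PTDSS2), 2 with the counting trend (CDS2 and LPCAT1), and 0 under the other alternatives. Of all genes, quantile normalization called 53 of 12037, a pseudocount of 0.1 called 54 of 12039, and a filter at 5 RPKM called 108 of 9509. With shares so low, the count of 0 members under those settings is near what all genes show. With each library left out it was 0 to 0, but in those fits, as with no filter, no trend or no line term, limma called 0 genes of all tested, so these zeros say nothing about the members. Fits with a library left out drop the line term, so line and siRNA are mixed by construction, and log2 fold changes ranged from -1.70 to 0.57 for ETNK2, -0.56 to 0.22 for PTDSS1, -0.081 to 1.13 for CDS2, -1.26 to 0.51 for PLD1, 0.041 to 0.79 for LPCAT1, -0.75 to -0.14 for PTDSS2, 0.17 to 0.32 for CDIPT, -0.46 to -0.023 for LPGAT1 and -0.61 to -0.068 for MBOAT1. With no replicate block, that is with the other factor left out, 0 members passed for siRNA (line term dropped) and 24 for line (siRNA term dropped). Between the lines the count was 26, 16 with no filter, 17 to 25 with a library left out (17 without the Huh1 NC library), and 22 to 27 otherwise. Of the 26, 13 passed under every alternative that tested them, and none turned direction where tested. A further 3, ETNK2, PCYT2 and GPD2, were lost with no filter alone. The uncalled CDIPT ranged from -0.26 to 0.026, LPCAT4 from -0.14 to 0.027 and LCLAT1 from -0.053 to 0.00066 with a library left out. Past the fold rule in Huh1 stood 0 members, and 2 with a pseudocount of 0.1 (CDS2 and GPD1). In Huh7 it was 1, 0 at 2-fold, 2 with quantile normalization, and 3 with upper quartile scaling or a pseudocount of 0.1. The count of members whose lines lay 1.5-fold apart was 1, and 4 with that pseudocount. Shares of all genes past these rules of size under the alternatives are not given here. The shifts in these counts are thus not read as a result about the members. The cause was not tested. On 2 kb, 1 read was worth 0.0374 to 0.0489 RPKM, which limits PCYT1B, CDS1, LPCAT2 and MBOAT2 in Huh1 or Huh7 and GPD1 in Huh7.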
